A study of Mus musculus with 2 samples.

Results

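The cycling cancer cells described here are the dividing SO cells of subcutaneous mouse tumors, read from 2 droplet-based single-cell RNA sequencing libraries without an upper limit on the depth of a cell. They numbered 367 of the 4403 cells that passed the cell filter in both libraries, 15 in the library from wild-type (WT) hosts and 352 in the library from tight skin (TSK) hosts. A cell had to hold at least 200 genes, at least 500 unique molecular identifiers (UMIs, 1 for each captured RNA molecule) and at most 10% mitochondrial UMIs, on a barcode found in only 1 library. Cancer cells were those with at least 3 UMIs of Lgals7 and Krt18 together, at least 1 UMI of Cdkn2a, no UMI of the immune genes Ptprc and Csf1r and fewer than 3 UMIs of the fibroblast genes Dcn, Lum and Pdgfra. Cycling cells were the cancer cells with at least 3 UMIs of Mki67, Top2a and Cdk1 together. The members were thus chosen by the measured UMIs of these genes, so the levels of those genes are given only as a description.

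SO is a C57BL/6 mouse ovarian cancer line that lacks p53 and carries introduced HRAS V12 and MYC oncogenes, and 1000000 cells were injected under the skin. All hosts were female C57BL/6 mice, 6 to 8 weeks old. The TSK hosts carry an intragenic duplication in Fbn1, the gene of the microfibril protein fibrillin-1, and the injected cancer cells were the same line in both genotypes and do not carry it. Tumors of several mice were pooled by genotype and each pool gave 1 library, so the genotype of the host, the pool, the sample handling and the library cannot be told apart, and no test between genotypes was possible.

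A dividing cell copies its DNA in S phase, with E2F factors switching on the genes of the replication machinery, and separates its chromosomes in mitosis with a set of genes that is switched on later, in G2. Myc raises the output of ribosome and nucleolar genes that growing cells need. Cancer cells also show peptides of their own proteins to T cells on MHC class I molecules, and interferons from T cells and other immune cells induce these molecules together with a wide set of defence genes.

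The WT library held 2332 barcodes with 21225411 UMIs and the TSK library 4436 barcodes with 48296765 UMIs, and 1442 and 2961 cells passed the filter. The steps of the rule left 99, 88, 77 and 47 WT cells and 1017, 980, 884 and 523 TSK cells after the Lgals7 and Krt18, the Cdkn2a, the immune and the fibroblast criteria. Of the 36 WT and 692 TSK cells that met the cycling criterion before the immune and fibroblast criteria, the immune criterion removed 8 and 79 and the fibroblast criterion alone 13 and 261. Doublets were not called otherwise. Lgals7, Krt18 and Cdkn2a chose the members and are no check of the cancer label. As a background for detection, T cells, which should lack Lgals7, held a UMI of it in 13 of 432 WT cells (3.01%) and 31 of 223 TSK cells (13.9%), at medians of 7022 and 3402 UMIs. Of the epithelial and mesothelial genes outside the rule, Wt1 had 70.7 CPM in WT and 36.5 CPM in TSK members and Epcam 13.9 and 19.8 CPM, where CPM are UMIs of a gene per 1000000 UMIs of all genes. After thinning to 10000 UMIs per cell, a depth that all 15 WT and 314 TSK members held, Wt1 had a UMI in 33.3% of these WT and 21.02% of these TSK members. Krt7 and Msln had 0 UMIs in both libraries and Krt8 0 in the WT members and 9.57 CPM in TSK, so the label rests on the rule. The members were deep, with a median of 53602 UMIs (10448 to 75879) and 6837 genes in the WT library and of 34318 UMIs (1166 to 96593) and 5785 genes in the TSK library. All 15 WT members and 314 of the 352 TSK members held over 10000 UMIs. Their mitochondrial share had medians of 2.64% and 2.84%.

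The barcode criterion fell unevenly on the 2 libraries. It removed 10 WT cycling cancer cells, with 76838 to 119670 UMIs (median 96882), and 0 TSK cells. In the TSK library the same 10 barcodes held only 544 to 788 UMIs each, 0.649% to 0.772% of the WT count, in 360 to 562 genes. Of the TSK members, 9 were as deep as the shallowest of these 10 cells. Since the 10 WT cells stood apart from the other 15 in depth and in several gene groups, results are given without them, as the rule has it, and in most cases also with them (25 WT cells).

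At the edge of the rule, 2 WT and 24 TSK members had exactly 3 UMIs of the cycling genes, and 4 WT and 34 TSK cancer cells just missed it with 2 UMIs. Of the non-cycling cancer cells, 23 of 32 in WT and 74 of 171 in the TSK library had none. Just inside the fibroblast limit lay 3 WT and 73 TSK cells with 2 UMIs, and just outside it 2 and 45 with 3.

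The sequences upstream of genes that stand for the main groups are shown because members of those groups lay on the same side in the comparison of the libraries. Each run holds the 250 bases before the gene's RefSeq start in the build GRCm38.p6 (mm10), 5′ to 3′ on the strand of the gene. In the first 4, capitals mark an interferon-stimulated response element, searched as GAAA or GAA followed by any 2 bases and GAAA. In Ccnb1 they mark CCAAT boxes and the cell cycle homology region (TTTGAA or TTTAAA), and in Mcm5 a pair of overlapping E2F sites (TTT, any base and GCGC), 1 on each strand.
B2m (chr2:122147437-122147686, plus strand): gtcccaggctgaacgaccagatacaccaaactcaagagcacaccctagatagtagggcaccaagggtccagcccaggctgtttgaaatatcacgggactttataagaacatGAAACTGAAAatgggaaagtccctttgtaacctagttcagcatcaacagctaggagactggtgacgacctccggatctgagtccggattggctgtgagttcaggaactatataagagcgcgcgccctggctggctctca
H2-K1 (chr17:34000348-34000597, minus strand): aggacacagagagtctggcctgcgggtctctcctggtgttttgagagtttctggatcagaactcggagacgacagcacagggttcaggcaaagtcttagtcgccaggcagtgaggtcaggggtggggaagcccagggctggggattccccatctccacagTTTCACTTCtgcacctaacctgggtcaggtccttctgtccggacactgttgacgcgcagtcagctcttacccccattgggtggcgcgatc
H2-D1 (chr17:35262844-35263093, plus strand): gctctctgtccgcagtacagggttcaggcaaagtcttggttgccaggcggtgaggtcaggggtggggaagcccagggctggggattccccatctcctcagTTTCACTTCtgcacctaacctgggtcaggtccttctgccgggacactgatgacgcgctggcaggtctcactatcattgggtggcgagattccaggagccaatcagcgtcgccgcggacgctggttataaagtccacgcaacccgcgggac
Gbp2 (chr3:142620413-142620662, plus strand): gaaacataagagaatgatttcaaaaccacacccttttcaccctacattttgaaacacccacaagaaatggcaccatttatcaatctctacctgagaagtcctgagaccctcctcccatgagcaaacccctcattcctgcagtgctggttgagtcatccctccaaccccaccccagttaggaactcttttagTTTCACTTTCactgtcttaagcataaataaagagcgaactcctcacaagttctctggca
Ccnb1 (chr13:100786487-100786736, minus strand): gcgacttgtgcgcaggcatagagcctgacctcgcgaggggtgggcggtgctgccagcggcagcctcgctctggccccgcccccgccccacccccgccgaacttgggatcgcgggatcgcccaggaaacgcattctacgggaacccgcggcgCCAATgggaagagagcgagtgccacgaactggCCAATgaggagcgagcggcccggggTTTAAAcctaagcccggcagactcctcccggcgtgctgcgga
Mcm5 (chr8:75109259-75109508, plus strand): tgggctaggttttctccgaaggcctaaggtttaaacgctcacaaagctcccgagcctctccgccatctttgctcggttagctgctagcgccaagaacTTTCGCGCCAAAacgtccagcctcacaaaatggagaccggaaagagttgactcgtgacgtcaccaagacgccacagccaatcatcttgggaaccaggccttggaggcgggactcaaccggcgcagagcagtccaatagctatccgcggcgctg
All motifs were searched on both strands, and they were chosen after the sequences had been seen. A listed gene with several RefSeq starts, such as H2-K1 with 2, counted when any of its windows matched. The share of all windows counted each window once, so the shares of the lists can be raised beside it. The interferon element lay in 8.81% of 32817 promoter windows of this length, in 5 of the 14 MHC class I genes and in 14 of the 24 interferon-stimulated genes that matched RefSeq. CCAAT lay in 33.8% of all windows, in 11 of 14 mitotic entry genes and in 17 of 27 kinetochore and spindle genes. The cell cycle homology region lay in 25.2% of all windows and in 5 of 14 and 12 of 27 of the same genes. The E2F letters lay in 1.13% of all windows and in 6 of 21 licensing and fork genes. The groups were not distinct in these letters: CCAAT also lay in 10 of 14 class I and 16 of 21 licensing and fork genes, and the E2F letters in 3 of 14 class I genes. The cell cycle homology region also lay in 8 of 24 interferon-stimulated genes. The E-box CACGTG, the letters Myc binds, lay in 6.02% of all windows, in 2 of 12 genes of the Myc list and in 3 of 14 class I genes. A match is a description of the letters and not a site shown to be used.

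Cycling cells made up a smaller share of the cancer cells in the WT than in the TSK library. In the WT library 15 of 47 cancer cells passed the cycling criterion, 31.9% (exact binomial 95% interval 19.1 to 47.1%), and in the TSK library 352 of 523, 67.3% (63.1 to 71.3%). With the 10 WT cells of shared barcodes, 25 of 58 WT cancer cells were cycling, 43.1% (30.2 to 56.8%), and the intervals of the libraries still did not overlap. All intervals reflect the number of UMIs or cells counted and no difference between mice or pools. Members were 1.04% of all WT cells that passed the filter and 11.9% of all TSK cells.

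This share moved strongly with the depth of a cell. Below 10000 UMIs, 0 of 12 WT cancer cells were cycling (0 to 26.5%), against 38 of 107 TSK cancer cells (35.5%). At 10000 to 20000 UMIs the counts were 2 of 5 and 41 of 87 (47.1%), with overlapping intervals. At 20000 to 40000 UMIs they were 0 of 12 (0 to 26.5%) and 144 of 197 (73.1%, 66.3 to 79.2%). At 40000 UMIs or more, 13 of 18 WT cells (72.2%, 46.5 to 90.3%) and 129 of 132 TSK cells (97.7%, 93.5 to 99.5%) were cycling. The TSK share was the higher in all 4 depth ranges, and the WT range with the most cycling cells was the deepest. These ranges leave out the 10 WT cycling cells of shared barcodes, which by their UMIs all belong to the deepest range. With them that range held 23 WT cycling cells, and its share was not computed. Cancer cells with at least 5000 UMIs were also thinned to 5000 UMIs, with 1 UMI of the cycling genes as the criterion, and shallower cells were left out. Of these, 16 of 41 WT cells (39.0%, 24.2 to 55.5%) and 328 of 474 TSK cells (69.2%, 64.8 to 73.3%) were cycling, again without the cells of shared barcodes.

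**Figure D1:**
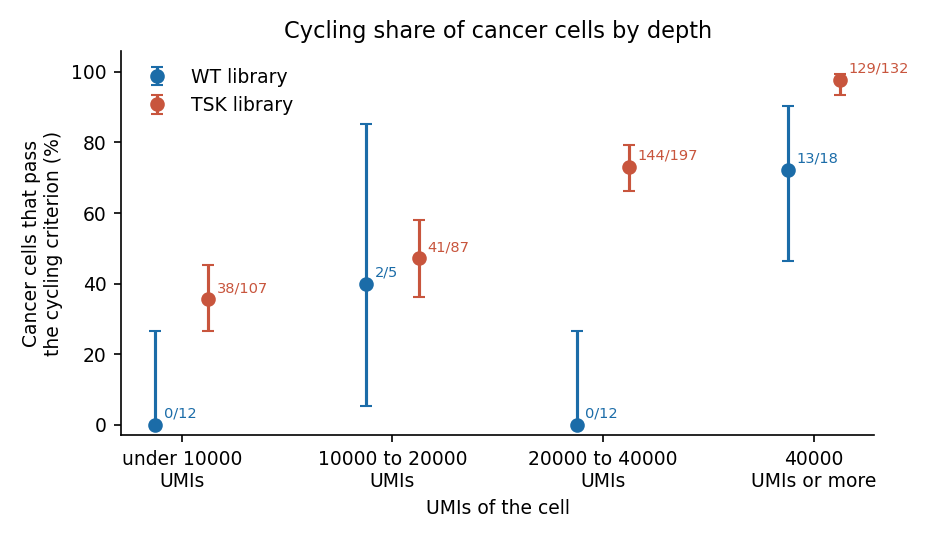
Percent of cancer cells that passed the cycling criterion (y axis) in 4 ranges of UMIs per cell (x axis), WT in blue and TSK in red, with exact binomial 95% intervals (counting error only) and the number of cycling over all cancer cells. The TSK share rises from 35.5% in the shallowest to 97.7% in the deepest range. The WT share is 0 in 2 ranges and 72.2% in the deepest. Cells of shared barcodes are left out.

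For the comparison of the libraries, the UMIs of each gene were summed over the cycling cancer cells of a library and divided by their UMIs of all genes, 792007 in WT and 12119573 in the TSK library, to give CPM. Of 5967 genes with a mean of at least 20 CPM, 645 (10.8%) were at least 2-fold higher in the TSK library and 292 (4.89%) at least 2-fold lower. The median log2 ratio of all these genes was 0.25, so a gene with a ratio of 0.25 is an average gene here. With scaling by the median of the gene ratios, which sets that shift to 0, the split turned to 328 higher and 469 lower. With the 10 WT cells of shared barcodes, 79 of 6046 genes (1.31%) were at least 2-fold higher and 158 (2.61%) at least 2-fold lower, and the median was 0.13. Of the first 645 genes, 59 were at least 2-fold higher in both versions and 622 kept a ratio above 1; of the 292 lower genes, 114 were at least 2-fold lower in both and all 292 kept a ratio below 1. Most genes of both groups fell short of 2-fold once the 10 cells were counted. The 25 WT cells include the 15 that chose these genes, so a kept direction is no independent check. Of the 645 higher genes, 247 passed the filter through the TSK library only, and of the 292 lower genes 136 through the WT library only. Among all 5967 genes these counts were 482 and 274.

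**Figure D2:**
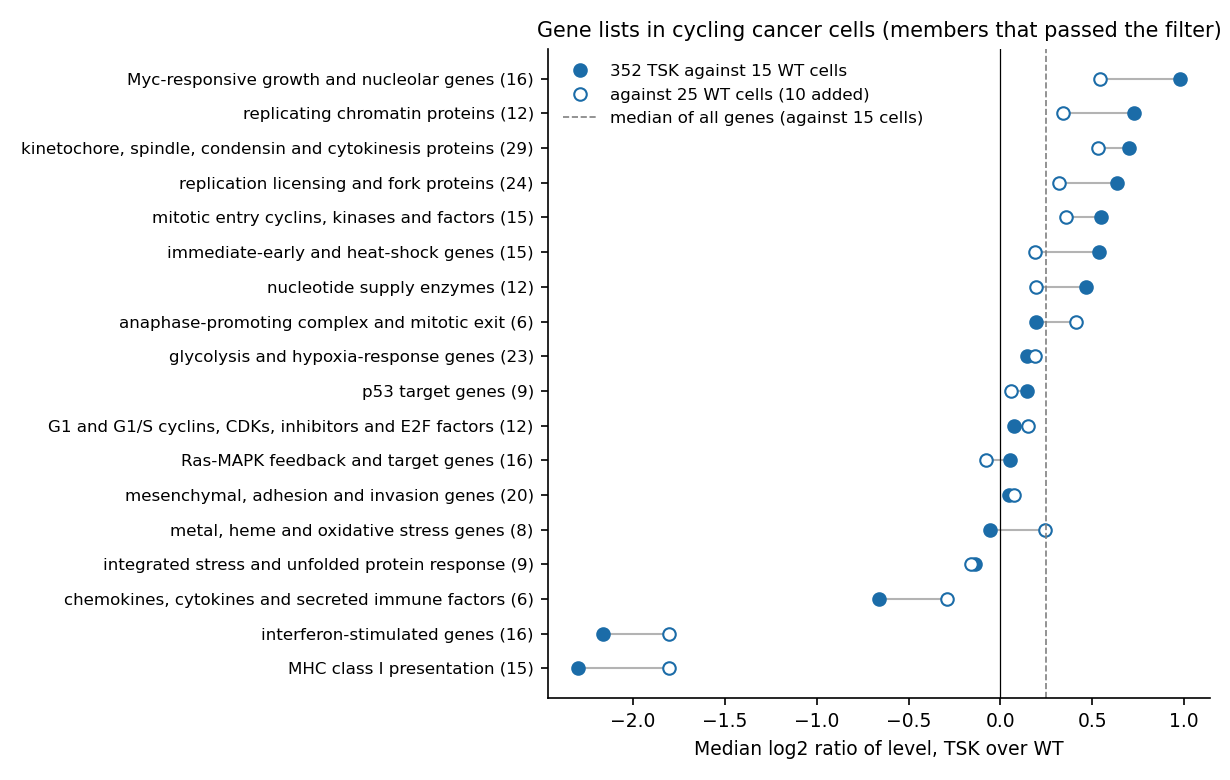
Median log2 ratio of CPM, TSK over WT (x axis), of the members of 18 gene lists that passed the filter (number in brackets), against 15 WT cells (filled) and 25 WT cells (open); the dashed line is the median of all genes at 0.25. The MHC class I and interferon lists lie at −2.30 and −2.16 against 15 cells and at −1.80 against 25, and the Myc list moves from 0.98 to 0.54.

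The genes of MHC class I presentation were lower in the TSK members. The heavy chain H2-K1 (chromosome 17, 33996017 to 34000347) had 750.0 CPM in WT and 142 CPM in TSK members, a TSK over WT log2 ratio of −2.40 (exact conditional 95% interval −2.54 to −2.26). H2-D1, the other classical heavy chain of this strain, had 829.5 and 139 CPM (−2.58, −2.71 to −2.44). B2m (chromosome 2, 122147686 to 122153083), the light chain shared by all class I molecules, had 2133 and 499 CPM, 4.27-fold less in the TSK library (−2.10, −2.17 to −2.02). The nonclassical H2-T23 had the lowest ratio of the list (−3.07, −3.41 to −2.72). With the 10 further WT cells, the ratios were −1.91 for H2-K1, −2.04 for H2-D1, −1.64 for B2m and −2.25 for H2-T23. Heavy chain genes are close copies of each other, and how the counting dealt with reads that match several of them is not given in the sources used here.

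The machinery that cuts and loads the peptides moved with the chains. The immunoproteasome subunits Psmb8 and Psmb9 had 364 and 112 CPM in WT and 73.0 and 15.9 CPM in the TSK library, log2 ratios of −2.32 and −2.82 (−1.89 and −2.30 with the 10 cells). The peptide transporter subunit Tap1 went from 101 CPM in the WT to 21.3 CPM in the TSK library (−2.25, with the 10 cells −1.87). Nlrc5, the transactivator of class I genes, had 24 UMIs in WT members and a log2 ratio of −1.35 (−1.98 to −0.66), and −1.53 with the 10 cells. The chaperones of the loading complex did not share this direction: Calr had 300.5 and 324 CPM (0.11, −0.08 to 0.30) and Pdia3 90.9 and 129 CPM (0.51), and both were near 0 with the 10 cells (−0.03 and 0.13). In all, 15 of the 16 genes of the list passed the filter, 12 were at least 2-fold lower and 0 at least 2-fold higher, with a median log2 ratio of −2.30 beside 0.25 for all genes. With the 10 cells, 10 of 14 were at least 2-fold lower, with a median of −1.80. The filter bears on these counts, since 6 of the 15 genes reached 20 CPM in the WT library only and so had to be lower in TSK. The sum over all genes of the list, which needs no filter, was 5287 CPM in WT and 1512 CPM in TSK members (−1.81, −1.86 to −1.76), and its ratio was −1.39 over 25 WT cells.

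Within each library the level of the class I list differed widely from cell to cell. The summed level of the list was 641 CPM in the lowest, 4736 in the median and 8429 in the highest of the 15 WT members. In the 10 WT cells of shared barcodes it was 1028, 3127 and 5465 CPM, and in the 352 TSK members 0, 1002 and 8623 CPM. The ranges overlap, and 17 TSK cells (4.83%) lay above the WT median, while 13 of the 15 WT cells lay above the TSK median. With 25 WT cells, 28 TSK cells (7.95%) lay above the WT median and 23 of 25 WT cells above that of TSK. B2m had a UMI in all 15 WT members and in 330 of the 352 TSK members. After thinning to 10000 UMIs it had one in 82.5% of the 314 TSK members of that depth and still in every WT member. H2-K1 was found in 93.3% and 43.9% of the thinned cells and Psmb9 in 60.0% and 10.8%. T cells of the same libraries, which express class I genes, held an H2-K1 UMI in 99.8% of WT and 98.2% of TSK cells.

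Interferon-stimulated genes were lower as well. The guanylate-binding protein Gbp2 had 216 CPM in WT and 36.9 CPM in TSK members, a log2 ratio of −2.55 (−2.81 to −2.29), and the nucleic acid sensor Zbp1 96.0 and 12.4 CPM (−2.96, −3.36 to −2.54). The immunity-related GTPase Iigp1 had 470 and 89.4 CPM (−2.39), but 1 WT cell held 53.2% of its WT UMIs, and without that cell the ratio was −1.43. The interferon regulatory factors Irf7 and Irf1 had ratios of −2.39 and −1.45. With the 10 WT cells the ratios were −2.03 for Gbp2, −2.04 for Zbp1, −1.80 for Iigp1, −1.45 for Irf7 and −0.82 for Irf1.

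The chemokines that recruit T cells were less even. Cxcl9 had a ratio of −2.09, with 88.5% of its 52 WT UMIs in 1 cell, and without that cell the ratio was 0.88 (−0.94 with the 10 WT cells, which held no UMI of it). Cxcl10 had 73.2 CPM in WT and 48.8 CPM in TSK members (−0.58, −0.98 to −0.17), 0.15 without the WT cell with most of its UMIs, and −1.84 with the 10 WT cells, whose own level was 259 CPM. Of the 30 genes of the interferon list, 29 were found by symbol and 16 passed the filter, with 14 at least 2-fold lower, 0 at least 2-fold higher and a median of −2.16. With the 10 cells, 14 of 17 were at least 2-fold lower, with a median of −1.80. Here 8 of the 16 genes reached 20 CPM in the WT library only, so that their direction was fixed by the filter. The sum over all 29 genes was 1990 CPM in WT and 516 CPM in TSK members (−1.95, −2.03 to −1.87, and −1.77 over 25 WT cells). The 10 cells alone had 1565 CPM, and 1 of them, at 10830 CPM, held most of their UMIs of the list. Per cell, the lowest, median and highest member had 0, 1701 and 5871 CPM among 15 WT cells, 65.8, 485 and 10830 CPM among the 10, and 0, 96.5 and 13100 CPM among 352 TSK cells. Of the TSK cells, 6 lay above the highest of the 15 WT cells and 2 above the highest of all 25, while the median TSK cell was close to 0.

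**Figure D3:**
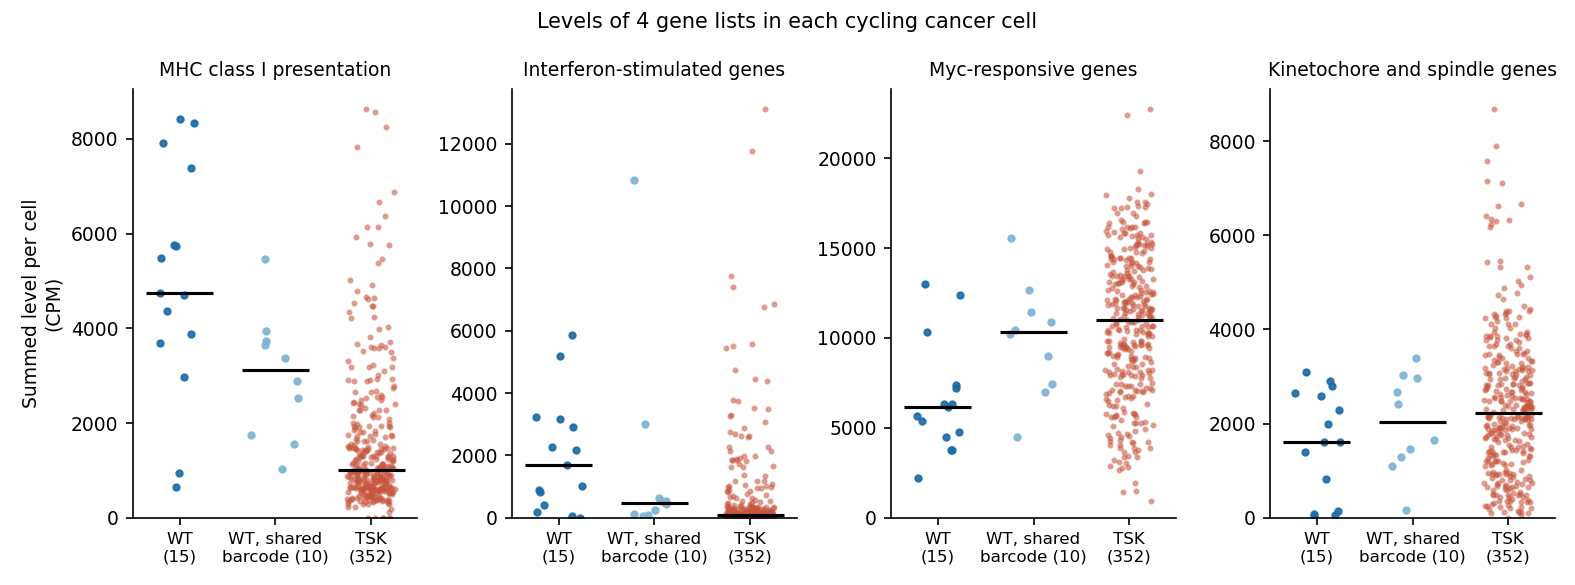
Summed level of 4 gene lists in each cycling cancer cell (y axis, CPM), for 15 WT cells, the 10 WT cells with a shared barcode and 352 TSK cells; black bars are medians. The WT points of the class I list have a median of 4736 CPM and the TSK points of 1002 CPM, and for the Myc list the 10 WT cells (median 10340 CPM) lie nearer to TSK (11000) than to the other 15 (6176).

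The same lists were measured in the deeper cells of both libraries. In cells of at least 40000 UMIs (13 WT and 129 TSK), the median log2 ratio was −2.52 for the class I list and −2.32 for the interferon list, beside 0.28 for all genes. With the shared barcodes and the same limit (23 WT cells) the medians were −2.02 and −1.94. In the deepest cells, of at least 75000 UMIs with shared barcodes kept (11 WT and 12 TSK), they were −1.61 and −1.15, smaller than over all cells. All 10 WT cells of shared barcodes, with at least 76838 UMIs each, are among these 11. Depth and the 10 cells thus cannot be told apart at this limit. The non-cycling cancer cells of the same libraries differed in the same direction, with 5335 CPM in 32 WT and 2491 CPM in 171 TSK cells for the class I list (log2 ratio of the sums −1.10, −1.16 to −1.04) and 2062 and 1091 CPM for the interferon list (−0.92, −1.01 to −0.83). Per non-cycling cell, the medians were 4645 CPM in WT and 1469 CPM in TSK for the class I list. For the interferon list they were closer, 363 and 259 CPM, and 1 WT cell held 655 of its 1443 WT UMIs. The interferon ratio of non-cycling cells thus rests largely on few cells. The ratios of the sums over cycling cells, −1.81 and −1.95, were larger in size. With shared barcodes kept on both sides (33 non-cycling WT cells, 1 of them added), the ratios were −1.16 and −1.37 in non-cycling and −1.39 and −1.77 in cycling cells.

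Many cell cycle genes had higher values in the TSK members, to a degree that differed with the 10 WT cells and with the limit on depth. In cells of at least 40000 UMIs the S lists together had a median log2 ratio of 0.71 and the G2/M lists of 0.81, beside 0.28 for all genes. When the shared barcodes were kept at that limit they were 0.34 and 0.64, beside 0.15. In the deepest cells, 11 WT and 12 TSK cells of at least 75000 UMIs, the S lists stood at 0.10, below the median of all genes (0.14), with the licensing list at 0.08 and the nucleotide list at 0.09, and the G2/M lists at 0.54. These 11 WT cells include all 10 of the shared barcodes, so depth and those cells cannot be told apart there. Among the G1 regulators, the cyclin Ccne1, which drives entry into S phase, had only 4 WT UMIs (5.05 CPM) against 36.1 CPM in TSK members, a log2 ratio of 2.84 (1.47 to 4.72). E2f3, an activating E2F factor, had 27.8 and 124.6 CPM (2.17, 1.56 to 2.84). With the 10 cells their ratios were 1.17 and 1.13. The cyclin D1 gene Ccnd1 had 375 and 257 CPM (−0.55), its kinase Cdk4 241 and 249 CPM (0.04) and the CDK inhibitor Cdkn1a 88.4 and 52.6 CPM (−0.75). These 3 ratios were −0.16, −0.11 and −0.22 over 25 WT cells. Of the 21 genes of the G1 list 12 passed the filter, 2 were at least 2-fold higher and 1 at least 2-fold lower, with a median of 0.07 (0.15 over 25 WT cells). Of the 12, 2 reached 20 CPM in the TSK library only, Ccne1 among them, and 1 in the WT library only. The filter fixed their direction.

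Of the S phase genes, Dtl, the adaptor that marks the licensing factor Cdt1 for destruction, had 12 WT UMIs (15.2 CPM) and 77.2 CPM in the TSK library (2.35, 1.54 to 3.31), and 0.85 with the 10 cells. The checkpoint mediator Clspn had 12.6 and 42.5 CPM (1.75) and the helicase subunit Mcm5 29.0 and 64.2 CPM (1.14, 0.55 to 1.81). Adding the 10 cells turned these to 0.76 and 0.40. The sliding clamp Pcna had 134 and 151 CPM (0.17, −0.11 to 0.47) and a ratio of −0.19 with the 10 cells. Of 27 licensing and fork genes 24 passed, 8 were at least 2-fold higher and the median was 0.64; with the 10 cells 0 of 26 were, with a median of 0.32. Of the 24 licensing and fork genes, 4, Dtl and Clspn among them, reached 20 CPM in the TSK library only. Their direction was fixed by the filter. The sum over all 27 genes, which needs no filter, was 1158 CPM in WT and 1880 CPM in TSK members. Its log2 ratio was 0.70 (0.60 to 0.80), and 0.24 over 25 WT cells. Among the proteins of replicating chromatin, the H3K27 methyltransferase gene Ezh2 had 37.9 and 116.5 CPM (1.62), the histone chaperone Chaf1a 1.90 and the remodeller Hells 1.33 on the log2 scale. With the 10 cells these ratios were 0.38, 0.86 and 0.49, and the count at least 2-fold higher went from 5 of 12 to 0 of 13. Chaf1a was the 1 gene of the 12 that reached 20 CPM in the TSK library only. The nucleotide enzymes ranged from Dut (−0.09) to Umps (1.35), with 1 of 12 at least 2-fold higher and a median of 0.47, and 0 of 12 with a median of 0.19 when the 10 cells were added. Umps was the 1 enzyme that reached 20 CPM in the TSK library only.

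Of the mitotic entry genes, the kinase Plk1 had 18.9 and 57.2 CPM (1.59, 0.86 to 2.44), the factor Mybl2 11.4 and 30.1 CPM (1.41) and the cyclin Ccnb1 40.4 and 56.1 CPM (0.47, −0.04 to 1.03). The factor Foxm1, which drives the G2 genes, had the lowest ratio of the list (−0.41, −1.09 to 0.34). With the 10 cells the ratios were 0.58 for Plk1, 0.14 for Mybl2, 0.64 for Ccnb1 and −0.27 for Foxm1. Of 20 genes 15 passed and 4 were at least 2-fold higher (median 0.55), against 0 of 15 with the 10 cells (median 0.36). Plk1 and Mybl2 reached 20 CPM in the TSK library only and Foxm1 in the WT library only. The filter thus fixed their direction. The sum over all 20 genes was 775 CPM in WT and 1075 CPM in TSK members (0.47, 0.35 to 0.59, and 0.30 with the 10 cells). In the kinetochore, spindle, condensin and cytokinesis list, Incenp, a scaffold of the Aurora B complex, had 16.4 and 58.9 CPM (1.84, 1.06 to 2.76) and the mitotic kinesin Kif20b 13.9 and 45.2 CPM (1.70). The spindle protein Hmmr had 29.0 and 85.8 CPM (1.56), and the kinetochore protein Spc25 59.3 and 59.1 CPM (−0.01). Here 29 of 31 genes passed, 10 were at least 2-fold higher and 26 lay above the median of all genes, with a list median of 0.70; with the 10 cells 1 of 29 was at least 2-fold higher, Incenp stood at 0.86, Kif20b at 0.47, Hmmr at 0.79 and Spc25 at 0.01, and the list median was 0.53. Of the 29 genes, 3, Incenp and Kif20b among them, reached 20 CPM in the TSK library only, which fixed their direction. The sum over all 31 genes was 1544 CPM in WT and 2447 CPM in TSK members (0.66, 0.58 to 0.75, and 0.41 with the 10 cells). The activator of the anaphase-promoting complex Cdc20 had 55.6 and 61.8 CPM (0.15, and 0.53 with the 10 cells). The subunit Cdc27 had a ratio of −1.09, with 76.1% of its WT UMIs in 1 cell, 0.84 without that cell and −0.39 with the 10 cells.

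Summed over the UMIs of all cycling cells, the balance between the G2/M and S genes was nearly the same in both libraries. Abundant genes weigh most in these sums: in WT members Hmgb2 and H2afz had 747.5 and 1019 of the 4538 CPM of the S lists. The median log2 ratios of the S and G2/M genes were 0.60 and 0.57 over all members. In cells of at least 40000 UMIs with shared barcodes kept they were 0.34 and 0.64. The G2/M lists held 2553 UMIs and the S lists 3594 UMIs in the WT members, a ratio of 0.710, against 52961 and 77179 UMIs and a ratio of 0.686 in the TSK members. The log2 ratio of the balance was −0.05 (−0.11 to 0.01). Over 25 WT cells the ratio was 0.654, and in the 10 cells of shared barcodes alone 0.619. More G2/M than S UMIs were found in 4 of 15 WT cells (26.7%, 7.79 to 55.1%) and in 78 of 352 TSK cells (22.2%, 17.9 to 26.9%), and after thinning to 10000 UMIs in 2 of 15 (13.3%) and 66 of 314 (21.02%).

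**Figure D4:**
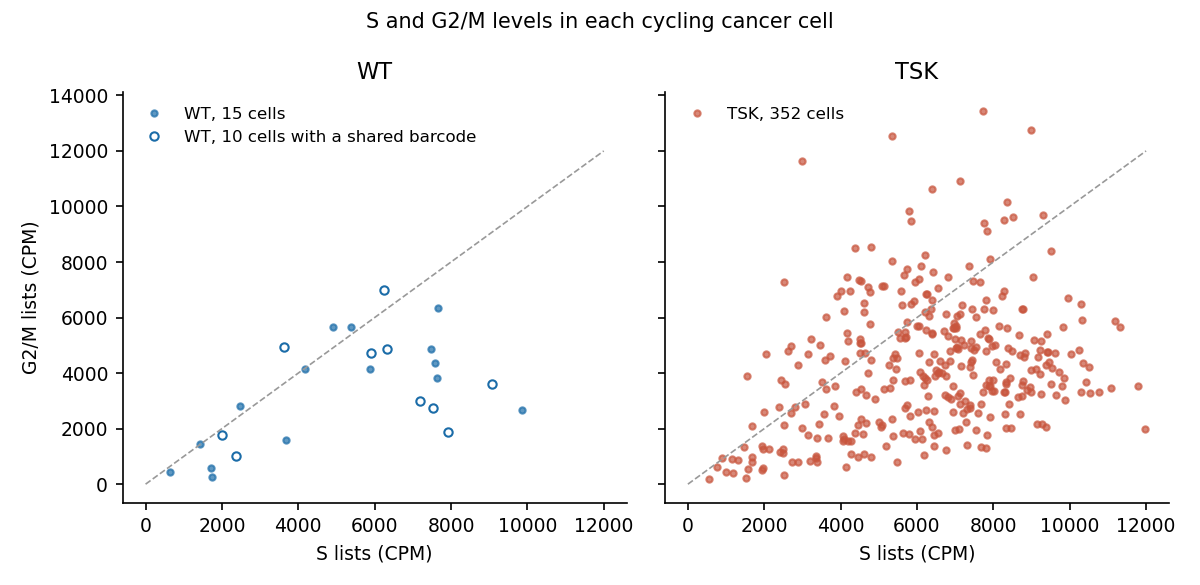
Summed level of the S lists (x axis) and of the G2/M lists (y axis) in each cycling cancer cell, both in CPM, for 15 WT cells and the 10 WT cells with a shared barcode (left) and 352 TSK cells (right); the dashed line marks equal levels. In both libraries most points lie under the line, with 4 of 15 WT and 78 of 352 TSK cells above it.

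Genes of the Myc list, Myc-responsive growth genes of which many serve the nucleolus and ribosome assembly, were higher in the TSK members. Nucleolin (Ncl, chromosome 1, 86344719 to 86359400), one of the most abundant nucleolar proteins, had 1174 CPM in WT and 3020 CPM in TSK members, a log2 ratio of 1.36 (1.27 to 1.46). The ribosome assembly genes Wdr43, Nolc1 and Nop56 had ratios of 1.58, 1.49 and 1.31. Nucleophosmin (Npm1) had 1800 and 2634 CPM (0.55). With the 10 WT cells, Ncl stood at 1924 CPM in the WT library (0.65), Wdr43 at 1.12, Nolc1 at 0.71, Nop56 at 0.58 and Npm1 at 0.20. Of 17 genes 16 passed, 8 were at least 2-fold higher, 15 lay above the median of all genes and the list median was 0.98; with the 10 cells 1 of 17 was at least 2-fold higher, with a median of 0.54. In cells of at least 40000 UMIs the median was 1.14, with shared barcodes 0.67, and in the deepest cells 0.39, beside 0.28, 0.15 and 0.14 for all genes. The deepest WT cells are nearly all cells of shared barcodes.

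Per cell, the Myc list had 2193 CPM in the lowest, 6176 in the median and 13020 in the highest of 15 WT members. In the 10 WT cells of shared barcodes it had 4516, 10340 and 15580 CPM, and in the TSK members 910, 11000 and 22750 CPM, so that these 10 cells were closer to the TSK cells than to the other WT cells. Myc itself had 45 UMIs in the WT members (56.8 CPM, 41.4 to 76.0) and 2137 in the TSK members (176 CPM, 169 to 184), a log2 ratio of 1.63 (1.21 to 2.09). Its level was 176 CPM in the 10 WT cells of shared barcodes, the level of the TSK library, and over all 25 WT cells the ratio was 0.53. Whether reads of the introduced MYC and HRAS count towards the mouse genes is not given in the sources used here. Hras had 111 and 124 CPM (0.16, −0.15 to 0.48, and 0.28 with the 10 cells). Trp53, whose protein the line lacks, still gave UMIs in 13 of 15 and 309 of 352 members (51.8 and 117 CPM, 1.18, and 0.57 with the 10 cells), and a count at the 3′ end does not check a deletion elsewhere in the gene.

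**Figure D5:**
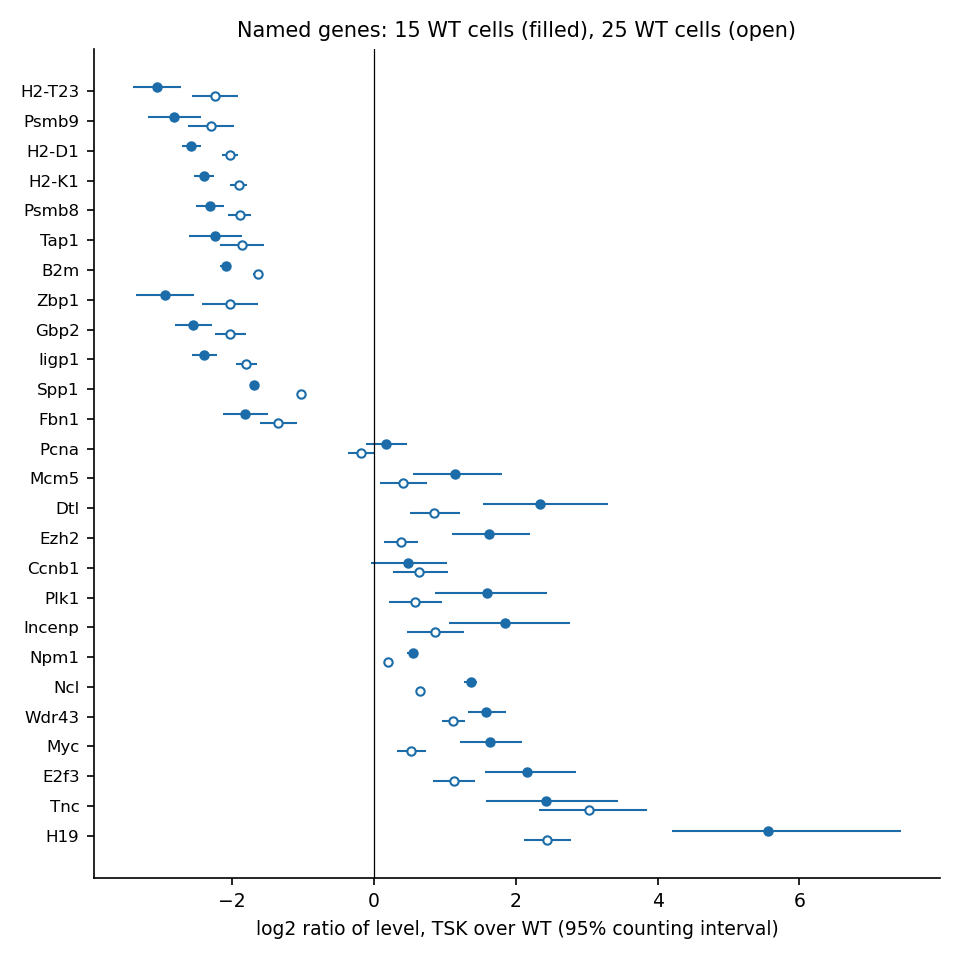
Log2 ratio of CPM, TSK over WT (x axis), of named genes with exact conditional 95% intervals (counting error only), against 15 WT cells (filled) and 25 WT cells (open). The 10 class I and interferon genes drawn lie between −3.07 and −1.64 in both versions, while most replication, mitosis and Myc genes move towards 0 with the 10 added cells, Ezh2 from 1.62 to 0.38, and Ccnb1 moves from 0.47 to 0.64 and Pcna from 0.17 to −0.19.

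The signalling, metabolic and stress programmes had list medians between −0.14 and 0.54. The Ras-MAPK list, feedback regulators and targets of the pathway that HRAS V12 drives, had a median of 0.05 (−0.08 with the 10 cells), with Etv5 at 0.96 and Dusp6 at 0.87 (0.75 and 0.06 with the 10 cells). Ereg, an EGF receptor ligand with 60.0% of its WT UMIs in 1 cell, had 75.8 CPM in WT and 37.8 CPM in TSK members, and 58.3 CPM over 25 WT cells. The glycolysis and hypoxia list had a median of 0.15 (0.19 with the 10 cells) with 3 of 23 genes at least 2-fold higher and 1 at least 2-fold lower: the hexokinase Hk2 had 134 and 284 CPM (1.08, and 1.09 with the 10 cells), Hk1 56.8 and 27.1 CPM (−1.07, and −0.27), and Pfkfb3, which raises glycolytic flux, 1.98 from 8 WT UMIs (0.48 with the 10 cells). Pfkfb3 was the 1 gene of the 23 that reached 20 CPM in the TSK library only, and the filter fixed its direction. Gapdh had 1809 and 1347 CPM (−0.43, and −0.16). The p53 target list had a median of 0.15, with Mdm2 at 0.22 and Phlda3 at −1.43, and over 25 WT cells these were 0.06, −0.14 and −0.79. Phlda3, with 18.8 CPM in TSK members, reached 20 CPM in the WT library only, so its direction was fixed by the filter. The unfolded protein response list had a median of −0.14 (−0.16 over 25 WT cells) and the metal and heme list of −0.06 (0.24). The immediate-early and heat-shock list stood at 0.54, close to the mitotic entry list, with the chaperone Hsph1 at 1.15; with the 10 cells this median was 0.19 and Hsph1 stood at 0.01.

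The mesenchymal and adhesion list had a median of 0.05, with 3 of 20 genes at least 2-fold higher and 1 at least 2-fold lower. Its sum, which abundant genes set, was 7452 CPM in WT and 5662 CPM in TSK members (−0.40, −0.43 to −0.36), and 27.6% of the TSK cells lay above the WT median. Over 25 WT cells the median was 0.08 and the ratio of the sums 0.02. Tenascin C (Tnc), a matrix glycoprotein of invasive fronts, had 11 WT UMIs (13.9 CPM) and 74.8 CPM in the TSK members (2.43, 1.58 to 3.44), and 3.03 with the 10 cells. It had a UMI in 5 of 15 WT and 112 of 352 TSK members. Of the 20 genes, Tnc was the 1 that reached 20 CPM in the TSK library only, which fixed its direction. N-cadherin (Cdh2) and the factor Zeb1 had ratios of 1.43 and 1.10, and 0.07 and 0.28 with the 10 cells. The calcium-binding protein S100a6 had 2633 and 1316 CPM (log2 interval −1.07 to −0.93), and a ratio of −0.04 with the 10 cells, and the matrix protein Tgfbi −1.07 and −0.61. Fibronectin (Fn1) had 967 and 1027 CPM (0.09, and 0.08 with the 10 cells).

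Among secreted factors, osteopontin (Spp1), a matrix protein that also acts as a cytokine, had 8105 CPM in WT and 2506 CPM in TSK members (−1.69, −1.73 to −1.65). A single WT cell held 45.5% of its UMIs, and without that cell the ratio was −0.92; with the 10 cells it was −1.03. Mif had 2175 and 2028 CPM (−0.10, and −0.05 with the 10 cells). Most genes of this list were near 0 in both libraries, and 6 of 27 passed the filter. Fbn1, the gene duplicated in the TSK hosts but not in the injected cells, had 133 CPM in WT and 37.5 CPM in TSK members (−1.82, −2.13 to −1.50, and −1.35 with the 10 cells). It had a UMI in 60.0% and 26.1% of the thinned cells.

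The 10 highest ratios among genes that passed the filter belonged to genes with 1 to 5 WT UMIs: Igfbp5 (5.72), H19 (5.56), Ptn (4.01), Exd2 (3.91), Ube2cbp (3.55), Adat1 (3.51), Pop1 (3.32), Atad5 (3.26), Dlc1 (3.15) and Basp1 (3.04). All 10 passed the filter through the TSK library only, so their place in this order follows in part from the filter. The imprinted long noncoding RNA H19 had 5.05 CPM in WT and 239 CPM in TSK members (4.20 to 7.44). It had a UMI in 2 of 15 WT and 186 of 352 TSK members, with up to 6701 CPM in a cell. With the 10 WT cells, H19 stood at 44.0 CPM (2.44), Igfbp5 at 25.7 CPM (1.37) and Basp1 at 4.57 CPM (3.50). The growth factor Ptn went the other way, to 94.9 CPM in 25 WT cells and a ratio of −1.22. Of these 10 genes, Adat1 (0.35) and Atad5 (0.74) were also no longer at least 2-fold higher, while Exd2 (2.73), Ube2cbp (2.28), Pop1 (1.30) and Dlc1 (1.92) were.

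The 10 lowest ratios belonged to Pax6os1 (−9.11), Nlrp12 (−6.86), Ccl11 (−6.42), Sfrp1 (−6.38), C3 (−6.08), Gm47080 (−5.02), Timp3 (−5.01), Ubd (−4.98), Gm32916 (−4.69) and Rffl (−4.20). All 10 passed through the WT library only. In 8 of them, all but Ccl11 and C3, over 50% of the WT UMIs came from 1 cell, and all 36 UMIs of Pax6os1 did. Without its top cell, Rffl had a ratio of −0.02 and Gm32916 of −0.65. Complement C3 had 75 UMIs in 6 WT members (94.7 CPM) against 17 UMIs in 352 TSK members (1.40 CPM), and kept a ratio of −5.62 with the 10 cells, whose own level was 48.0 CPM. The eosinophil chemokine Ccl11 had 70.7 and 0.825 CPM (−5.49 with the 10 cells). Over 25 WT cells the 10 ratios lay between −7.96 and −3.13, and 6 of these genes had 0 UMIs in the 10 cells. Among all 292 lower genes, 47 (16.1%) had over 50% of their WT UMIs in 1 cell, against 1.89% of all genes that passed, and 241 had a UMI in at least 8 of the 15 cells.

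Markers of other cell types were present at different levels in the members. Each list is given without a test of its part in the results. The 7 T and NK cell markers had 0 UMIs in all 15 WT members and in 340 of 352 TSK members (0 and 1.07 CPM), and red blood cell genes had 0 UMIs in the WT members (0.330 CPM in TSK). Neutrophil markers had 3.79 and 21.7 CPM, but 1 TSK cell held 213 of the 263 TSK UMIs. Of the 352 TSK members, 308 had no UMI of these markers and 5 had 2 or more. The endothelial list had 60.6 and 54.7 CPM, with 2 or more UMIs in 7 of 15 WT and 82 of 352 TSK members, most of it Pecam1 (49.2 and 41.9 CPM). The macrophage list had 633 and 112 CPM (430 over 25 WT cells), with 2 or more UMIs in 9 WT and 143 TSK members, nearly all of it Apoe (591 and 89.8 CPM), and 86.1% of the WT UMIs of Apoe lay in 1 cell, without which its ratio went from −2.72 to −0.01. The defining macrophage genes C1qa and Lyz2 had 4 and 2 UMIs in all WT members. The fibroblast list had 1062 and 469 CPM (763 over 25 WT cells), with 2 or more UMIs in 14 WT and 316 TSK members. It was mainly Sparc (702 and 242 CPM, −1.54, and −1.13 with the 10 cells), followed by Col3a1 and Fbn1. Col3a1, with 147 CPM in TSK members, did not share this direction. Its ratio of 0.02 was the highest of the list, and it was 0.68 with the 10 cells. Col1a1, with 77.1% of its 35 WT UMIs in 1 cell, had a ratio of −1.13 and of 0.90 without that cell. Leaving out cells with 2 or more UMIs of the T, macrophage, neutrophil, endothelial or red blood cell markers left only 4 WT and 128 TSK cells, in which the median log2 ratio was −2.39 for the class I list, −2.28 for the interferon list and 1.35 for the Myc list. Lgals3, an epithelial and macrophage lectin, had 234 and 57.9 CPM (−2.01, and −0.94 with the 10 cells).

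Against the non-cycling cancer cells of the same library, the members showed the cell cycle genes that the rule did not name. The rule used this contrast, so the values are a description. In the WT library 454 of 5629 genes (8.07%) were at least 2-fold higher and 363 (6.45%) at least 2-fold lower in cycling cells, and in the TSK library 360 of 5844 (6.16%) and 89 (1.52%). With the WT cells of shared barcodes, 25 cycling and 33 non-cycling, 521 of 5765 genes (9.04%) were higher and 229 (3.97%) lower. Of the S lists, 25 of 30 genes in WT and 41 of 44 in the TSK library were at least 2-fold higher, and of the G2/M lists 27 of 30 and 41 of 43; with the shared barcodes the WT counts were 37 of 38 and 31 of 34. All kinetochore and spindle genes that passed were (17 WT and 26 TSK genes, median log2 ratios of 3.10 and 3.01). In the TSK library Incenp went from 3.02 CPM in non-cycling to 58.9 CPM in cycling cells and Kif20b from 2.65 to 45.2 CPM.

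How the class I and Myc lists went with cycling in the WT library depended on the 10 cells. The class I list had a median log2 ratio of cycling over non-cycling cells of 0.11 in the WT library, with 0 of 16 genes at least 2-fold higher and 1 lower, and of −0.84 in the TSK library, with 3 of 10 lower. B2m had 2409 CPM in non-cycling and 2133 CPM in cycling WT cells (−0.18, −0.27 to −0.08), and 1069 and 499 CPM in TSK cells (−1.10, −1.16 to −1.03). The Myc list had medians of 0.41 and 0.91, with Ncl at 1089 and 1174 CPM in the WT library (0.11) and at 1573 and 3020 CPM in the TSK library (0.94). Osteopontin had 7494 and 8105 CPM in WT and 5765 and 2506 CPM in TSK cells (0.11 and −1.20). Over 25 cycling and 33 non-cycling WT cells, the class I median was −0.40 with B2m at −0.67 (−0.76 to −0.58), the Myc median 0.85 with Ncl at 0.84, and osteopontin at −0.47. The WT values of the Myc genes were then close to those of TSK, and those of B2m and osteopontin lay between 0 and the TSK values. With 1 library per genotype, differences between the libraries were not tested.

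Among the 352 TSK members the lists of one phase went together. The points are cells of 1 library that share its depth and composition, so the correlations are descriptions. Mitotic entry and kinetochore lists had a Spearman correlation of 0.799, and licensing and nucleotide lists of 0.601, while licensing and mitotic entry lists had one of 0.067. The class I and interferon lists correlated at 0.587. The class I list against the Myc list gave −0.272, the Myc list against the nucleotide list 0.590 and against the mesenchymal list −0.465. The correlations of these 8 lists with UMIs per cell lay between −0.065 for the class I list and 0.284 for the Myc list.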

How the data were processed

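Tumor cells were captured with 10x Genomics 3′ chemistry (1 library per genotype, tumors pooled). The authors deposited raw counts of UMIs per gene and barcode, whole numbers without normalization, made with Cell Ranger (7.1.0 per the file headers, 7.1.1 in the submitters' processing notes) on mm10. Here cells were filtered and classed by the rule given above, and UMIs were summed per library and class. The cell counts, gene lists and comparisons were chosen with earlier results of these data known. Ratios carry exact conditional, levels exact Poisson and shares exact Clopper-Pearson 95% intervals, computed with Python 3.11.15, numpy 2.4.6, scipy 1.17.1 and pandas 2.3.3. Figures were drawn with matplotlib 3.10.9. A count of 0 was set to a floor of 3 counts per library. Tested on simulated data for TSK over WT, the intervals held the known ratio of 95.6% of 5967 genes. The simulated counts were Poisson draws without spread between cells, as the intervals assume. The test thus checks the computation and does not cover genes whose UMIs lie mostly in 1 cell. UMI counts at 3′ ends were compared between libraries, not between genes. Named genes were the defining, highest and lowest members of each list and the 10 highest and 10 lowest ratios among genes with a mean of at least 20 CPM. Gene IDs matched GENCODE M21 (GRCm38) in 99.6% of cases. Mx1, Aldoa and Ddit3 were not found as unique symbols, and 1 gene of the lists is not reported here by name. Alternatives were limits on UMIs (10000 and 60000) and mitochondrial share (20%), shared barcodes kept, a cycling criterion of 6 UMIs, cells with other markers left out, other scalings and weights, other filters on low values, thinning, and, chosen after seeing the data, only cells of at least 40000 UMIs and removal of the WT cell with the most UMIs of a gene.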

Additional observations from a re-analysis of the deposited data

How the results depend on the processing

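No paired analysis was possible because each genotype has 1 library. With 15 WT cells, a single cell can set a ratio, and depth and the cycling class cannot be separated below 10000 UMIs, where 0 WT members remained and no ratio could be computed. The cycling share was 0.0% for WT and 35.5% for TSK with at most 10000 UMIs per cell, and for TSK 55.5% with a criterion of 6 UMIs and 75.5% in cells of at least 10000 UMIs. The log2 balance of G2/M over S was 0.16 with at most 60000 UMIs, 0.069 with shared barcodes kept, −0.39 without cells holding other markers and 0.067 in cells of at least 40000 UMIs. Counts of genes at least 2-fold higher and lower were 79 and 158 with shared barcodes kept, 1071 and 704 without cells holding other markers, 328 and 469 with median-ratio scaling, 252 and 136 with a mean of at least 50 CPM, and 1780 and 2062 without the filter. Without cells holding other markers, the glycolysis median was −0.96 and the Ras-MAPK median −0.68. With equal weight per cell, 974 genes were higher in cycling WT cells. Among genes past 2-fold these directions turned: Cxcl9 to 2.99 (at most 60000 UMIs), 0.70 (other markers left out) and 0.88 (without its top cell); Apoe to 0.54 (at most 60000 UMIs); Cdc27 to 1.08, 1.84 and 0.84 under the settings given for Cxcl9; Ptn to −1.22 (shared barcodes kept); Col1a1 to 2.19 (6 UMIs), 2.97 (other markers left out) and 0.90 (without its top cell); Sparc to 0.81 and Phlda3 to 0.26 (other markers left out); Ereg to 0.22 (without its top cell). Cxcl10, not past 2-fold, went to 0.15 without its top cell and to 0.034 with 6 UMIs. Fewer WT cells enter several of these settings by construction; otherwise the cause was not tested. Of 72 named genes past 2-fold, 64 kept their direction in every setting and 28 stayed past 2-fold in every one. Among the other summary values, 122 held and 21 moved. A value counted as held when it stayed within a preset margin of the main one, so it need not be unchanged. With shared barcodes kept, the Myc median of 0.54 against 0.98 and the class I median of −1.80 against −2.30 both counted as held.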
